A study of Mus musculus with 18 samples.

Results

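The 8 genes described here encode cytosolic sensors of foreign RNA, DNA and bacterial products, together with the adaptor that the RNA sensors share. They are Ddx58, Ifih1, Dhx58, Mavs, Aim2, Zbp1, Nlrp3 and Nlrc4. The list was set by gene name, but with earlier results of these data known. All 8 were found among the 15219 gene symbols that the 3 raw count tables have in common, and all 8 passed the filter on low counts, as did 13539 genes in all. The data are RNA sequencing of dendritic cells sorted from mouse spleen as plasmacytoid cells (pDC, lineage-negative, CD64-negative, BST2+ with intermediate CD11c), conventional type 1 cells (cDC1, XCR1+CD11b-) and conventional type 2 cells (cDC2, XCR1-CD11b+). By the labels each subset has 3 HDAC1 Mx1-Cre samples and 3 HDAC1 floxed samples. In HDAC1 Mx1-Cre mice the Cre transgene is driven by the interferon-responsive Mx1 promoter and so is not limited to dendritic cells. Mice of both genotypes received polyI:C, a double-stranded RNA mimic, and cells were sorted 2 weeks later. No sample of mice without polyI:C is analysed here, so the levels below are those of cells from mice given a ligand of this pathway.

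Each raw count table holds 1 subset with 6 columns, and the column codes match none of the sample labels. A column is therefore known to belong to a subset but not to a genotype, no knockout comparison was made, and Hdac1 could not serve as a check of the labels. Every subset value below is over 6 columns that mix both genotypes, and the spread between columns includes any difference between the genotypes. The labels do not tie columns to mice, so the p-values measure the spread between columns only. Column totals were 24453121 to 31773453 counts in pDC, 23530860 to 37105002 in cDC1 and 25672768 to 33820524 in cDC2. Levels are given as CPM, each count scaled to its column's total. Of the markers listed for each subset, 9 of 9 pDC markers, 6 of 8 cDC1 markers and 5 of 9 cDC2 markers had their highest median in their own table. The cDC1 markers Irf8 and Tlr3 and the cDC2 markers Irf4, Cd209a, Clec10a and Cd4 had theirs in pDC, and Cd209a had 1080 CPM in pDC, 35.9 in cDC1 and 389 in cDC2. Siglech had a median of 8610 CPM in pDC, 23.0 in cDC1 and 10.4 in cDC2, Xcr1 had 1.89 in pDC, 966 in cDC1 and at most 9.90 in cDC2, and Itgam, the CD11b gene, had 2.20 in pDC, 2.50 in cDC1 and 38.2 in cDC2. In bulk RNA of this kind, fewer expressing cells and less RNA per cell cannot be told apart.

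RIG-I-like receptors are helicases that bind viral RNA in the cytosol and signal through the mitochondrial adaptor MAVS to produce type I interferon. AIM2 and ZBP1 bind nucleic acid and lead to inflammasome formation and to necroptosis. NLRP3 and NLRC4 assemble inflammasomes that activate caspase-1, which matures interleukin-1β and interleukin-18. pDC are known for sensing nucleic acids in endosomes through Toll-like receptors, and conventional dendritic cells for use of cytosolic sensors as well.

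Of the 8 sensors, 6 were lower in pDC than in both conventional subsets at an adjusted p under 0.05, as were 23.4% of all genes tested. In cDC2, 6 were higher than in both other subsets, as were 14.3% of all genes. Mavs alone was higher in pDC than in both conventional subsets, as were 23.2% of all genes. A difference between pDC and cDC1 was not detected for Ddx58. The widest range belonged to Nlrp3, at 2.01 ± 0.662 CPM in pDC, 7.39 ± 2.22 in cDC1 and 38.4 ± 4.24 in cDC2 (SD, n = 6). The plot of sensor levels by subset gives every column.

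**Figure D1:**
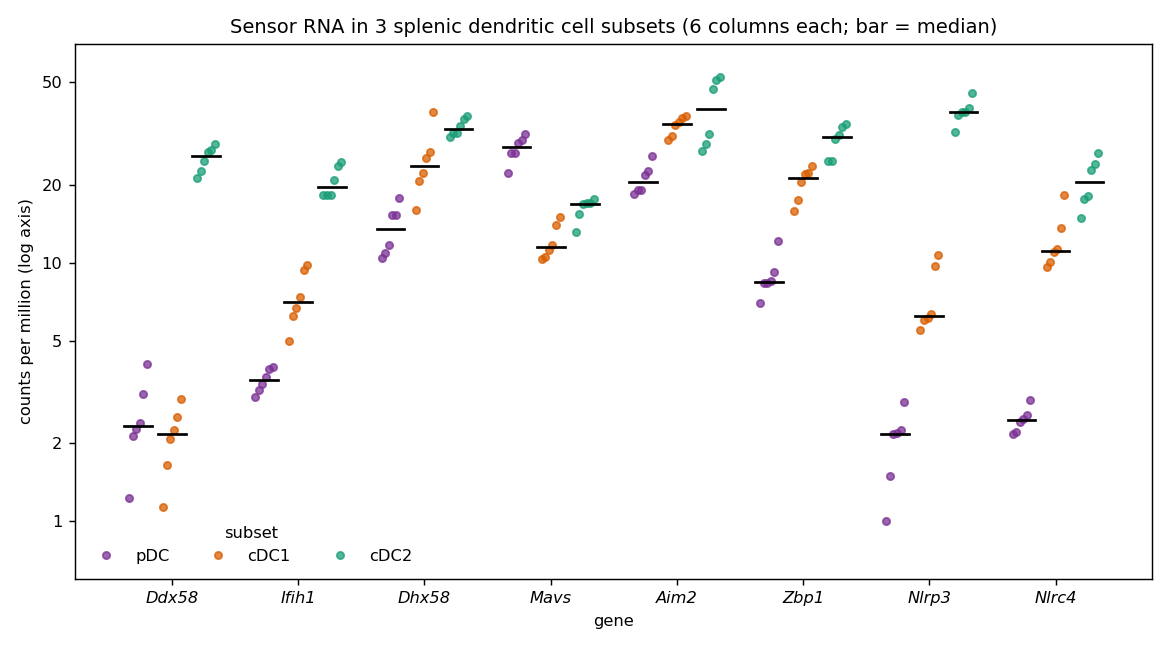
CPM of the 8 sensors on a log axis, with each of the 6 columns of pDC, cDC1 and cDC2 as a point and the median as a bar. The cDC2 points lie highest for Ddx58, Ifih1, Zbp1 and Nlrp3 with no overlap, and the pDC points lie highest for Mavs.

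Promoters of 4 sensors are shown because their RNA followed different subset patterns: Ddx58 was high in cDC2, Ifih1 was graded over the 3 subsets, Mavs was highest in pDC and Nlrp3 spanned the widest range. The sequences are from RefSeq on GRCm38.p6, from 250 bases before to 50 bases after the start of the gene, read 5′ to 3′ on the gene's strand. The regions are chr4:40239776-40240075 on the minus strand for Ddx58, chr2:62646206-62646505 on the minus strand for Ifih1, chr2:131233813-131234112 on the plus strand for Mavs and chr11:59541319-59541618 on the plus strand for Nlrp3. Capitals mark matches to 3 motifs searched on both strands: an interferon-stimulated response element core of GAAA, any 2 bases and GAAA; the same repeat with any 1 base between; and an ETS-IRF composite of GGAA, any 2 bases and GAAA.
Ddx58: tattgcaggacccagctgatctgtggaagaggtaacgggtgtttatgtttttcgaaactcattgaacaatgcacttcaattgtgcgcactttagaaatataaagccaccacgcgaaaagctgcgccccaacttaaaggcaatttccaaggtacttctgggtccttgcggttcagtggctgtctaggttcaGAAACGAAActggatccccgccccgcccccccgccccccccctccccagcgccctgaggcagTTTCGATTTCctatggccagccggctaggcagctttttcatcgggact
Ifih1: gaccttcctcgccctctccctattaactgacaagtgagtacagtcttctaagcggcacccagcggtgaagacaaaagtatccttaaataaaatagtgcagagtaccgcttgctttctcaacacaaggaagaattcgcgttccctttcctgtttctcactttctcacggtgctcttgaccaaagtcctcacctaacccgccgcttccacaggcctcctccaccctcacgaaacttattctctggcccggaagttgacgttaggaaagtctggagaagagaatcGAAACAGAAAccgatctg
Mavs: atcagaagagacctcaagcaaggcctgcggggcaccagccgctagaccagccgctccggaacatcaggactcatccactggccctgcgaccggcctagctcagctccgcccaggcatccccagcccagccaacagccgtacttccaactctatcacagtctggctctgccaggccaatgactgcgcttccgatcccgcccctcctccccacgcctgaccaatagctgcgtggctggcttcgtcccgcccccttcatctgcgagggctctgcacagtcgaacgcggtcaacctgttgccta
Nlrp3: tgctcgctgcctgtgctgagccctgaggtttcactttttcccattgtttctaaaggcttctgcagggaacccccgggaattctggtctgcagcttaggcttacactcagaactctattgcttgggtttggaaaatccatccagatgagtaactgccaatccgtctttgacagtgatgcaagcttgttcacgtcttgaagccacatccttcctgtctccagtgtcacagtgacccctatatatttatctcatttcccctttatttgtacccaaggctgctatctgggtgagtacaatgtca
The Ddx58 window holds GAAACGAAA from 60 to 52 bases before the start, which is the repeat with 1 base between, and the repeat with 2 bases between on the other strand, read here as TTTCGATTTC, at bases 3 to 12 counted from the start base as 1. The Ifih1 window holds GAAACAGAAA, the repeat with 2 bases between, at bases 33 to 42. No match overlaps another. The letters of these 3 motifs were not found in the Mavs and Nlrp3 windows shown, nor in the windows of Aim2 and Nlrc4. The Aim2 window, chr1:173420354-173420653, lies 69725 bases from the gene start given below. Nlrp3 has another start site, and its window at chr11:59542436-59542735 also held no match. Of the 8 sensors, 6 had an entry in the promoter table, and Dhx58 and Zbp1 are named only. Over 32851 mouse promoters of the same length, the repeat with 2 bases between was found in 3.44%, that with 1 base in 3.17% and the composite in 2.72%.

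Ddx58, the gene of RIG-I, which recognises RNA with a 5′-triphosphate end, lies at chr4:40203773-40239828 on the minus strand (GRCm38, GENCODE M21, as for all gene positions here). Its CPM had a lowest value of 1.23, a median of 2.33 and a highest of 4.07 in pDC, against 1.14, 2.17 and 2.98 in cDC1 and 21.3, 25.8 and 28.8 in cDC2. The pDC and cDC1 columns overlapped almost throughout, and every cDC2 column lay far above them. By edgeR, log2 fold changes were -3.53 ± 0.22 (SE) in pDC relative to cDC2 (adjusted p = 6.42e-12) and -3.58 ± 0.22 in cDC1 relative to cDC2 (adjusted p = 2.00e-11). In pDC relative to cDC1 it was 0.06 ± 0.21 with a 95% interval of -0.36 to 0.48 (adjusted p = 0.827), so a difference was not detected, and raw counts were low there, at 30 to 105 in pDC and 38 to 94 in cDC1. Of all genes tested, 1.29% had a larger change than Ddx58 between cDC1 and cDC2.

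Ifih1, the gene of MDA5, which recognises long double-stranded RNA and polyI:C, lies at chr2:62595798-62646255 on the minus strand. In pDC its lowest, median and highest CPM were 3.01, 3.51 and 3.95, against 4.96, 7.02 and 9.82 in cDC1 and 18.2, 19.6 and 24.4 in cDC2. The 3 subsets formed separate steps with no overlap. The log2 fold change was -1.28 ± 0.14 in pDC relative to cDC1 (adjusted p = 5.37e-08), -2.75 ± 0.14 in pDC relative to cDC2 (adjusted p = 3.49e-13) and -1.48 ± 0.13 in cDC1 relative to cDC2 (adjusted p = 9.44e-09).

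Dhx58, the gene of LGP2, a receptor of the same family without signalling domains that modulates RIG-I and MDA5, lies at chr11:100694884-100704271 on the minus strand. The 6 pDC columns ran from 10.4 CPM through a median of 13.5 to 17.7, against 15.9, 23.7 and 38.3 in cDC1 and 30.5, 32.7 and 37.0 in cDC2. In CPM the cDC1 columns were the most spread and reached into both neighbours, whereas pDC and cDC2 were apart. The fold changes use TMM factors, which were 1.14 in the highest pDC column and 0.985 in the lowest cDC1 column. With these factors the pDC and cDC1 columns would also be apart. By edgeR, log2 fold changes were -1.09 ± 0.15 in pDC relative to cDC1 (adjusted p = 2.65e-06) and -1.51 ± 0.15 in pDC relative to cDC2 (adjusted p = 2.69e-08). In cDC1 relative to cDC2 it was -0.42 ± 0.15 (adjusted p = 0.0246), and this call was lost without any of 3 cDC1 columns or 1 cDC2 column, with adjusted p-values of 0.0505, 0.0512, 0.0577 and 0.0553. Of 3272 exonic bases of Dhx58, 141 lie in an exon of the antisense gene Dhx58os, which no table lists, and the sources used here do not say if reads were counted by strand.

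Mavs, the adaptor of RIG-I and MDA5 on mitochondria, lies at chr2:131234063-131248025 on the plus strand. Its CPM had a lowest value of 22.2, a median of 27.9 and a highest of 31.3 in pDC, against 10.4, 11.5 and 15.0 in cDC1 and 13.1, 16.9 and 17.7 in cDC2. Every pDC column exceeded every column of the conventional subsets, which overlapped each other. The log2 fold change was 0.98 ± 0.09 in pDC relative to cDC1 (adjusted p = 6.68e-09), 0.56 ± 0.09 in pDC relative to cDC2 (adjusted p = 1.50e-05) and -0.41 ± 0.09 in cDC1 relative to cDC2 (adjusted p = 0.00079). The adaptor and the helicases that signal through it differed in opposite directions between pDC and cDC2, and both directions passed the test.

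Aim2, a sensor of cytosolic DNA that builds an inflammasome, lies at chr1:173350879-173466040 on the plus strand. In pDC its lowest, median and highest CPM were 18.4, 20.5 and 25.8, against 29.8, 34.4 and 36.7 in cDC1 and 26.9, 39.2 and 52.4 in cDC2. All pDC columns lay below all others, and the cDC2 columns spread to both sides of the cDC1 columns. By edgeR, log2 fold changes were -0.88 ± 0.15 in pDC relative to cDC1 (adjusted p = 3.15e-05) and -1.10 ± 0.15 in pDC relative to cDC2 (adjusted p = 2.14e-06). In cDC1 relative to cDC2 it was -0.22 ± 0.15 with a 95% interval of -0.51 to 0.08 (adjusted p = 0.243), and no difference was detected. The span of Aim2 also holds Cadm3 on the other strand, which shares 0 exonic bases with it and had a median of 0.387 CPM in pDC, 1.47 in cDC1 and 8.20 in cDC2.

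Zbp1, a sensor of Z-form nucleic acid that can start necroptosis through RIPK3, lies at chr2:173206612-173218923 on the minus strand. The 6 pDC columns ran from 6.99 CPM through a median of 8.44 to 12.2, against 15.8, 21.2 and 23.7 in cDC1 and 24.6, 30.5 and 34.4 in cDC2. In CPM the subsets followed each other without overlap, though the highest cDC1 and lowest cDC2 columns nearly met. The fold changes use TMM factors, which were 0.851 in that cDC1 column and 0.951 in that cDC2 column. With these factors that cDC1 column would lie above that cDC2 column, so this separation depends on the scaling. The log2 fold change was -1.41 ± 0.13 in pDC relative to cDC1 (adjusted p = 6.42e-09), -1.94 ± 0.13 in pDC relative to cDC2 (adjusted p = 4.15e-11) and -0.54 ± 0.13 in cDC1 relative to cDC2 (adjusted p = 0.00143).

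Nlrp3, an inflammasome sensor that responds to potassium efflux and many other stresses, lies at chr11:59541568-59566956 on the plus strand. Its CPM had a lowest value of 1.01, a median of 2.18 and a highest of 2.90 in pDC, against 5.51, 6.22 and 10.7 in cDC1 and 31.9, 38.3 and 45.1 in cDC2. The subsets were fully apart. By edgeR, log2 fold changes were -2.08 ± 0.21 in pDC relative to cDC1 (adjusted p = 2.38e-08), -4.46 ± 0.22 in pDC relative to cDC2 (adjusted p = 2.71e-13) and -2.37 ± 0.19 in cDC1 relative to cDC2 (adjusted p = 2.56e-09). The pDC level rests on 26 to 71 raw counts a column. Of all genes tested, 3.99% changed more than Nlrp3 between pDC and cDC2, and 4.36% did so between cDC1 and cDC2.

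Nlrc4, which forms an inflammasome when NAIP proteins bind bacterial flagellin or secretion-system parts, lies at chr17:74425438-74459142 on the minus strand. In pDC its lowest, median and highest CPM were 2.17, 2.46 and 2.96, against 9.61, 11.1 and 18.2 in cDC1 and 14.9, 20.5 and 26.5 in cDC2. The pDC columns lay closest together and far below the rest, while cDC1 and cDC2 overlapped. The log2 fold change was -2.51 ± 0.15 in pDC relative to cDC1 (adjusted p = 6.27e-12), -3.26 ± 0.16 in pDC relative to cDC2 (adjusted p = 1.11e-13) and -0.75 ± 0.14 in cDC1 relative to cDC2 (adjusted p = 0.000137). Of all genes tested, 10.4% changed more than Nlrc4 between pDC and cDC1.

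**Figure D2:**
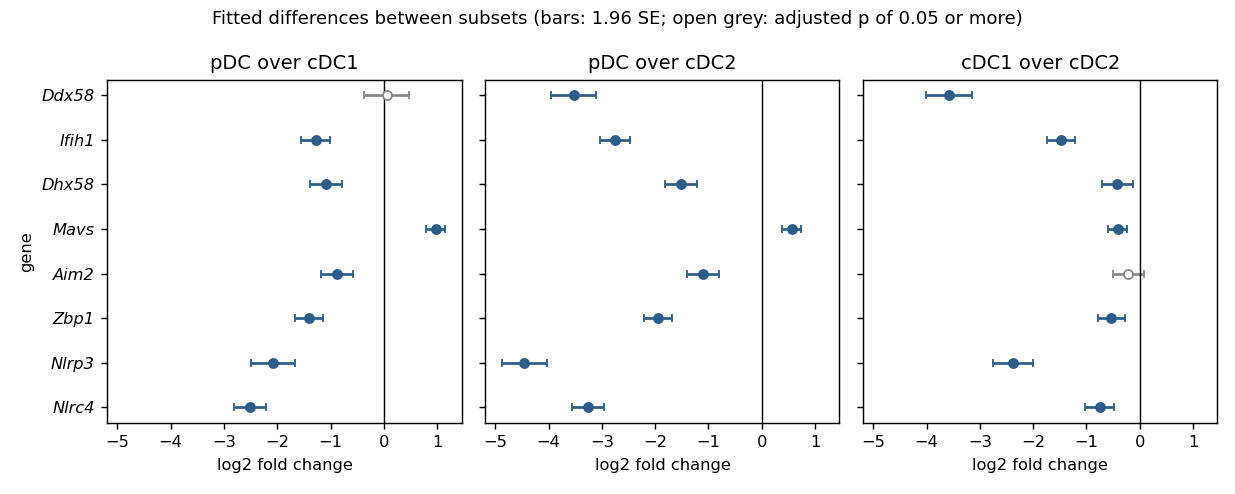
Fitted log2 fold changes of the 8 sensors for pDC over cDC1, pDC over cDC2 and cDC1 over cDC2, with bars of the 95% interval and open grey points where the adjusted p is 0.05 or more. Only Mavs lies right of 0 with a call, and Ddx58 in pDC over cDC1 and Aim2 in cDC1 over cDC2 are the open points.

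Many genes differed between these cell types, so the counts of sensors are read against all 13539 genes. In pDC relative to cDC1, 6 of 8 sensors were lower and 1 was higher at an adjusted p under 0.05, against 34.2% of all genes lower and 31.9% higher. In pDC relative to cDC2, 7 of 8 were lower and 1 was higher, against 32.1% of genes lower and 31.9% higher. In cDC1 relative to cDC2, 7 of 8 were lower and 0 were higher, against 25.6% of genes lower and 24.7% higher. All 8 fitted values were negative in cDC1 over cDC2, so no p threshold in that edgeR fit could call a sensor higher. DESeq2 also gave 0 sensors higher there. The median log2 fold change of the 8 was -1.19 in pDC over cDC1, against -0.04 over all genes. It was -2.35 in pDC over cDC2, against -0.01, and -0.64 in cDC1 over cDC2, against 0.01. The 3 comparisons share columns and are not independent.

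By a second rule, that no columns overlap, in CPM, 5 of 8 sensors were lower in pDC than in cDC1 and 1 was higher, against 16.9% of all genes lower and 27.7% higher. Relative to cDC2, 7 of 8 were lower in pDC and 1 was higher, against 18.8% of genes lower and 32.7% higher. In cDC1 relative to cDC2, 4 of 8 were lower and 0 were higher by this rule, against 13.7% of genes lower and 13.4% higher. This rule uses CPM without the TMM factors of the fold changes. With them, Zbp1 would overlap between cDC1 and cDC2, and Dhx58 would not overlap between pDC and cDC1. Scaling by column totals alone, without TMM factors, moved the median of all genes to 0.17 in pDC over cDC1, 0.20 in pDC over cDC2 and 0.00 in cDC1 over cDC2. It changed the split of all calls to 5517 higher and 3463 lower in pDC over cDC1, where TMM gave 4324 and 4627. In pDC over cDC2 it gave 5613 higher and 3344 lower, where TMM gave 4313 and 4345. No sensor changed its call or direction under that scaling.

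Levels can be set between genes only per length, as CPM per kilobase of the longest annotated transcript. Whether that transcript was the one expressed was not tested, so the order of genes below depends on the length used. Mavs was the highest of the 8 in pDC at 9.03, followed by Aim2 at 7.45, while Nlrp3 was lowest at 0.499 and Nlrc4 had 0.523. Aim2 was highest in cDC1, at 11.9, and Ddx58 lowest, at 0.544. In cDC2, Aim2 and Dhx58 each had 13.9, ahead of Nlrp3 at 9.55 and Zbp1 at 8.93, and Ifih1 was lowest at 3.77. Within the RIG-I-like family, Dhx58 exceeded both others in every subset, at 5.61 in pDC, 10.3 in cDC1 and 13.9 in cDC2, whereas Ddx58 had 0.654 in pDC, 0.544 in cDC1 and 6.52 in cDC2.

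Around the helicases, 7 of 19 genes of RIG-I-like receptor signalling were higher and 7 were lower in pDC relative to cDC1. Relative to cDC2, 5 were higher and 12 lower in pDC. In cDC1 relative to cDC2, 3 were higher and 8 lower. These and the list counts below stand against the shares of all genes. Those were 31.9% higher and 34.2% lower in pDC relative to cDC1, and 31.9% and 32.1% relative to cDC2. In cDC1 relative to cDC2 they were 24.7% and 25.6%. Irf7, the transcription factor that drives interferon-α genes, had 346 ± 17.2 CPM in pDC, 81.0 ± 19.8 in cDC1 and 75.6 ± 3.95 in cDC2, and was higher in pDC than in cDC2 by 1.99 ± 0.10 (log2, adjusted p = 1.92e-13). Ikbke, a kinase that activates IRF3 and IRF7, was higher in pDC than in cDC2 by 1.92 ± 0.23 (adjusted p = 1.88e-07). Mavs, Irf7 and Ikbke stood with the higher pDC genes while the 3 helicases did not. Trim25, Tradd and Tax1bp1 were also higher in pDC than in both conventional subsets. Tank, Traf3, Traf6, Irf5, Riok3 and Pcbp2 went the other way and were lower in pDC than in both. Tank had 58.8 ± 7.62 CPM in pDC, 148 ± 23.2 in cDC1 and 225 ± 20.5 in cDC2. Ddx60, a helicase proposed as a RIG-I cofactor, followed Ddx58: it had 1.37 ± 0.338 CPM in pDC, 1.24 ± 0.593 in cDC1 and 16.0 ± 4.25 in cDC2. Ddx60 is also the gene whose pattern was most like that of Ddx58 over the 18 columns.

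Among other RNA sensors and effectors, 4 of 12 were higher and 0 lower in pDC relative to cDC1 by edgeR, 1 was higher and 9 lower relative to cDC2, and 1 was higher and 10 lower in cDC1 relative to cDC2. The gene higher in cDC1 than in cDC2 was Oasl1 (adjusted p = 0.0466), and this call was lost in 12 of 18 fits that left out a column, with column totals and with no filter. With column totals, 8 of the 12 were higher in pDC than in cDC1. By DESeq2 and with RLE scaling, and by edgeR at an unadjusted p under 0.05, 1 of the 12 was lower in pDC than in cDC1. Oas2 had 0.0989 ± 0.0796 CPM in cDC1 and 6.56 ± 3.16 in cDC2 (adjusted p = 3.01e-09), and Oas1g had 0.153 ± 0.131 in cDC1 and 4.62 ± 1.53 in cDC2 (adjusted p = 9.12e-09). Both belong to the oligoadenylate synthetase family, and Oas1 genes are near-identical copies whose counts are uncertain.

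**Figure D3:**
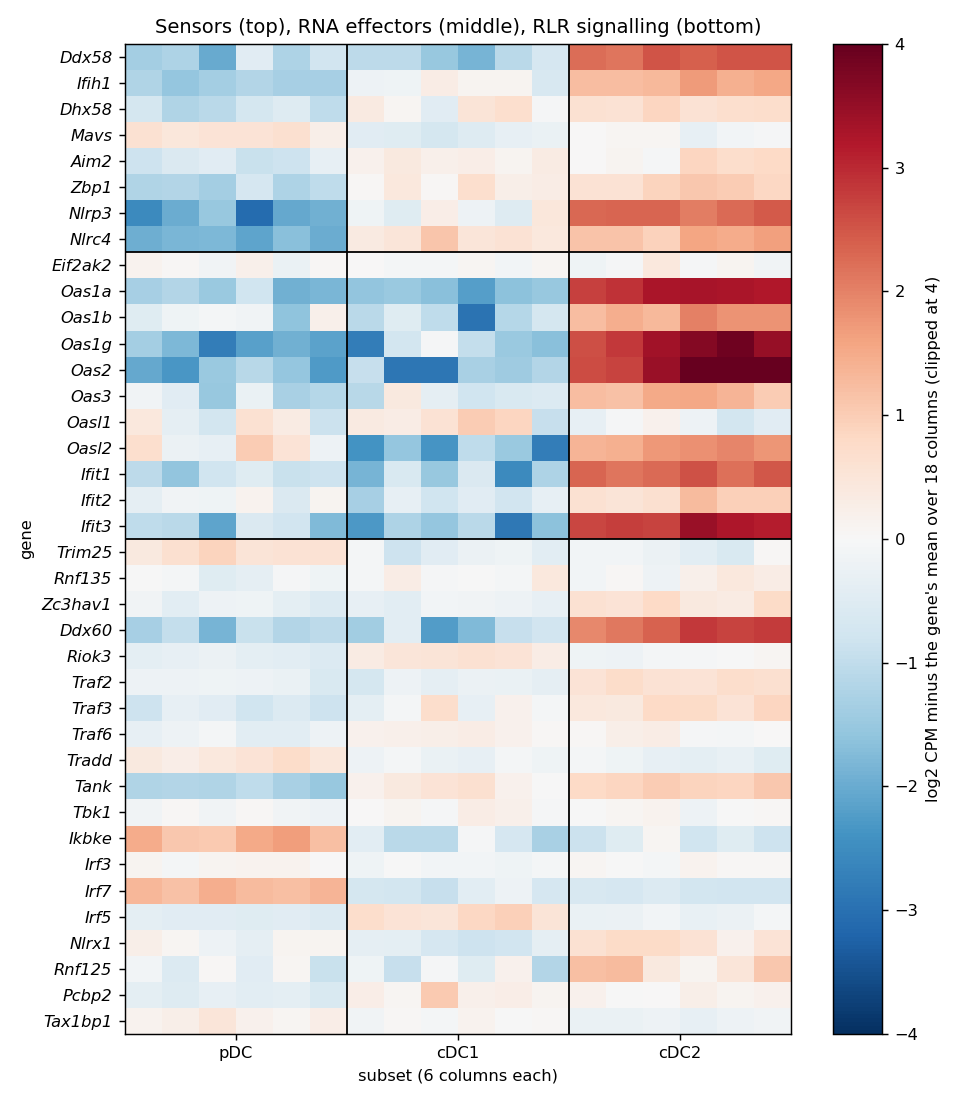
Log2 CPM of the 8 sensors, of 11 of the 12 other RNA sensors and effectors and of 19 RIG-I-like receptor signalling genes, minus each gene's mean over 18 columns, with pDC, cDC1 and cDC2 from left to right and values clipped at 4. Ddx58, Nlrp3 and most OAS and IFIT genes are red in cDC2, and Mavs, Irf7 and Ikbke are red in pDC.

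Interferon-stimulated genes in general did not share the sensors' order in every comparison. In pDC relative to cDC1, 13 of 20 were higher and 3 lower, while 7 were higher and 9 lower relative to cDC2, and 2 were higher and 15 lower in cDC1 relative to cDC2. Ifi47, an interferon-induced GTPase, had 193 ± 23.3 CPM in pDC, 18.9 ± 5.77 in cDC1 and 46.0 ± 4.15 in cDC2. Among the genes of the 6 pathway lists only, Ifi47 had 1 of the 3 largest increases in pDC against both. Rtp4 had 0.623 ± 0.326 CPM in pDC, 1.34 ± 0.588 in cDC1 and 84.7 ± 11.2 in cDC2 (adjusted p = 6.96e-14 for pDC against cDC2 and 1.38e-12 for cDC1 against cDC2). Mx1, an antiviral GTPase, was higher in cDC1 than in cDC2 by 1.12 ± 0.16 (adjusted p = 6.40e-06).

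Around Aim2, of 19 listed genes of cytosolic DNA sensing 5 were higher and 7 lower in pDC relative to cDC1, 5 were higher and 10 lower relative to cDC2, and 3 were higher and 7 lower in cDC1 relative to cDC2. Cgas, the cyclic GMP-AMP synthase, had 1.44 ± 0.327 CPM in pDC, 9.67 ± 2.20 in cDC1 and 9.98 ± 2.17 in cDC2, and like Aim2 was lower in pDC than in either conventional subset. The adaptor Sting1, downstream of Cgas, differed in the other direction, at 292 ± 17.8 CPM in pDC, 86.6 ± 21.3 in cDC1 and 153 ± 11.5 in cDC2, highest in pDC and lowest in cDC1. Ifi203 was higher in pDC than in cDC1 by 3.92 ± 0.16 (adjusted p = 7.62e-15), and Ifi205 was lower by 7.61 ± 0.36 (adjusted p = 1.47e-12), at 2.62 ± 1.52 CPM in pDC and 440 ± 69.4 in cDC1. Ifi205 was also higher in cDC1 than in cDC2, by 2.39 ± 0.27 (adjusted p = 8.94e-07). The Ifi200 genes are close copies of one another, so their counts are uncertain.

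Around Nlrp3 and Nlrc4, 24 of 26 inflammasome genes passed the filter, and 9 were higher and 11 lower in pDC relative to cDC1, 6 higher and 13 lower relative to cDC2, and 3 higher and 13 lower in cDC1 relative to cDC2. Il1b, the cytokine that caspase-1 matures, had 19.2 ± 7.21 CPM in pDC, 1737 ± 830 in cDC1 and 5817 ± 1504 in cDC2, with log2 fold changes of -6.74 ± 0.42 in pDC over cDC1 (adjusted p = 9.21e-11) and -8.46 ± 0.46 in pDC over cDC2 (adjusted p = 9.78e-12). Mefv, the gene of pyrin, had 0.0622 ± 0.0997 CPM in pDC, 15.4 ± 3.53 in cDC1 and 66.0 ± 3.76 in cDC2 (adjusted p = 2.82e-15 for pDC against cDC1 and 4.28e-17 for pDC against cDC2). Il18 had 7.98 ± 1.63 CPM in pDC, 33.3 ± 3.81 in cDC1 and 39.8 ± 4.32 in cDC2. The components that inflammasomes share differed among themselves. Pycard, the ASC adaptor, had 196 ± 15.3 CPM in pDC, 102 ± 9.65 in cDC1 and 120 ± 9.29 in cDC2, and Nek7, the kinase that binds NLRP3, had 135 ± 4.60 in pDC, 59.2 ± 7.29 in cDC1 and 80.5 ± 5.90 in cDC2. Casp1, the caspase itself, had 89.8 ± 5.44 CPM in pDC, 44.1 ± 7.99 in cDC1 and 114 ± 14.8 in cDC2, and was lower in pDC than in cDC2 by 0.55 on the log2 scale (adjusted p = 0.00018). Gsdmd, the pore protein gasdermin D, was lowest in pDC like most of the sensors, at 50.9 ± 6.02 CPM in pDC, 83.6 ± 9.55 in cDC1 and 98.0 ± 10.8 in cDC2. Nlrc5, an activator of MHC class I genes, was higher in cDC1 than in cDC2 by 1.33 ± 0.22 (adjusted p = 5.32e-05).

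Beyond Zbp1, 2 of 6 genes of the ZBP1 and necroptosis list were higher and 2 lower in pDC relative to cDC1. That is near the 31.9% higher and 34.2% lower of all genes, so no trait of the list is read from it. Relative to cDC2, 1 was higher and 2 lower in pDC, and in cDC1 relative to cDC2, 2 were higher and 1 lower. Ripk3, the kinase that ZBP1 engages, had 16.6 ± 2.95 CPM in pDC, 60.6 ± 17.4 in cDC1 and 28.7 ± 9.39 in cDC2, while Mlkl, the pore-forming executioner, had 0.425 ± 0.166 in pDC, 1.54 ± 0.632 in cDC1 and 1.67 ± 0.583 in cDC2. Zbp1, Ripk3 and Mlkl were all lowest in pDC, but Ripk3 was highest in cDC1 and Zbp1 in cDC2. The median log2 fold changes of the 6 lists lay between -0.17 and 0.61 in pDC over cDC1, between -2.06 and -0.09 in pDC over cDC2 and between -3.16 and -0.07 in cDC1 over cDC2.

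**Figure D4:**
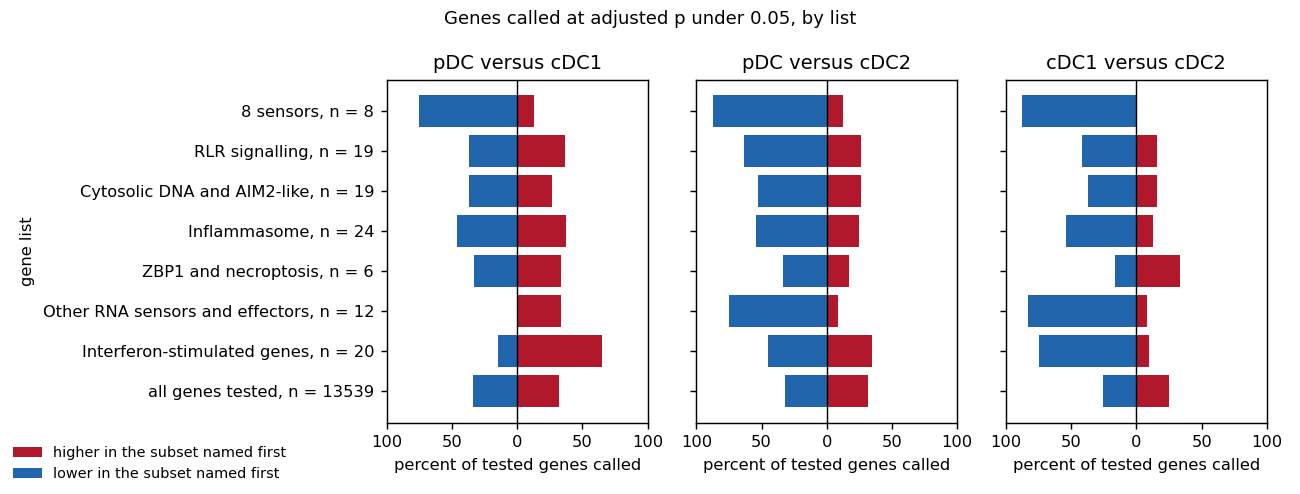
Percent of tested genes called at an adjusted p under 0.05, lower to the left and higher to the right, for the 8 sensors, 6 pathway lists and all 13539 genes in pDC versus cDC1, pDC versus cDC2 and cDC1 versus cDC2. The sensors are mostly lower in the subset named first in all 3 comparisons, whereas the interferon-stimulated genes are mostly higher in pDC versus cDC1.

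The genes closest in pattern to each sensor, by Pearson's r of log2 CPM over the 18 columns, were found for all 8. They were Ddx60, Oas1a and Bex6 for Ddx58 (0.984, 0.982 and 0.978), Arhgef2, Snx20 and Csgalnact2 for Ifih1 (0.989, 0.981 and 0.981) and Ddb2, Capza2 and Capza1 for Dhx58 (0.978, 0.964 and 0.964). For Mavs they were Trim36, Ccpg1 and Saraf (0.973, 0.969 and 0.966), for Aim2 Olfr652, Hlcs and Patj (0.957, 0.954 and 0.952) and for Zbp1 Phf11d, Gadd45g and Acot7 (0.985, 0.979 and 0.977). For Nlrp3 they were Nod1, Sirpb1a and Flvcr1 (0.985, 0.983 and 0.983), and for Nlrc4 Tmem131, Grk3 and Eno3 (0.995, 0.995 and 0.990). Columns of a subset share that subset's level, so these values are a description and carry no p.

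After each subset's mean was removed, pairs of sensors had correlations on both sides of 0. Over their 28 pairs r had a median of -0.02, from -0.62 between Mavs and Aim2 to 0.57 between Ifih1 and Nlrc4, and Aim2 and Nlrc4 had 0.54. The closest genes were then Ebf1, Cit and Cenpe for Ddx58 (0.849 to 0.825), Ddhd1, Gga3 and Ago2 for Ifih1 (0.893 to 0.847), Mindy2, Dera and Hsd17b4 for Dhx58 (0.935 to 0.895) and Eif3b, Mgat2 and St3gal4 for Mavs (0.919 to 0.886). They were Rabgap1l, Adcy7 and Trim5 for Aim2 (0.925 to 0.921), Psmc3ip, Ccnd2 and Tgtp2 for Zbp1 (0.844 to 0.775), Sema5a, Ttc21b and Man1a2 for Nlrp3 (0.777 to 0.765) and Rapgef1, Wdfy4 and Nipbl for Nlrc4 (0.954 to 0.886). These are maxima over all genes tested in 18 columns.

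Markers of other cells also differed between the subsets, some in the order of the sensors and others not. Nlrp3 and Nlrc4 are also expressed in monocytes, macrophages and neutrophils. Of the 10 monocyte and macrophage markers, all listed, Ly6c2 alone had a median of 7013 CPM in pDC. The 10 summed to 7117 to 7996 CPM in pDC, mostly from Ly6c2, to 145 to 486 in cDC1 and to 425 to 778 in cDC2. Among them Csf1r had medians of 1.94 in pDC, 19.1 in cDC1 and 234 in cDC2, and Adgre1 had 1.30 in pDC, 6.25 in cDC1 and 199 in cDC2, in the same order of subsets as Nlrp3. Ccr2 had the reverse order, with medians of 342 in pDC, 179 in cDC1 and 39.6 in cDC2. Fcgr1, which encodes the gated-out CD64, had 0.0521 in pDC, 0.396 in cDC1 and 3.16 in cDC2, and the medians of Vcan and F13a1 were under 1 CPM in cDC2. The 7 neutrophil markers summed to 14.0 to 206 CPM in pDC, 203 to 826 in cDC1 and 42.6 to 134 in cDC2. The 7 B cell markers summed to at most 197 CPM in any column, and the 4 erythroid markers to 1363 to 3744 in pDC, 1979 to 5225 in cDC1 and 1853 to 3262 in cDC2. The part of these markers in the results was not tested.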

How the data were processed

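The authors deposited raw gene counts and normalized values in separate tables for each subset. Only the raw counts were used, since the 18 normalized columns stand in separate tables and may not share a scale; per the submitters' processing notes kallisto, DESeq2 and GRCm38 were named, without versions or roles. The deposited counts are whole numbers, and the lowest gene sum in each table is 10. The 18 columns were joined on shared symbols. CPM is the count over the column total. Subsets were compared with edgeR 4.0.16 in R 4.3.3 (robust quasi-likelihood test, TMM scaling, filterByExpr, one fit of all 18 columns) and Benjamini-Hochberg adjustment over all 13539 genes; fold changes use TMM scaling, the threshold was 0.05 and intervals are 95% normal intervals. Log2 CPM used a prior count of 2. The code was tested on simulated data. Alternatives were RLE scaling, column totals, no filter, DESeq2 1.42.0, fits of 2 subsets, and leaving out each column. Named genes were all 8 sensors, the 3 pathway genes with the largest change each way in each comparison, and the 3 genes closest to each sensor; others were chosen after their values were seen. For 1 pathway gene that this choice names, values are not reported here. The sensors and lists were chosen with earlier results of these data known.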

Additional observations from a re-analysis of the deposited data

How the results depend on the processing

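All 24 fold changes of the sensors kept their direction and call under RLE scaling, column totals, no filter, DESeq2 and fits of 2 subsets. Leaving out 1 column moved Ddx58 in pDC over cDC1, which was not called, between -0.12 and 0.19 and so across 0, and Dhx58 in cDC1 over cDC2 between -0.53 and -0.32; the number of sensors lower in cDC1 than in cDC2 ranged from 6 to 7. Of other RNA sensors and effectors lower in pDC than in cDC1, RLE scaling and DESeq2 gave 1 and leaving out a column 0 to 2; those higher were 8 with column totals. The same list gave 0 genes higher in cDC1 than in cDC2 with column totals and with no filter, and 0 to 1 without a column, with 0 in 12 of 18 such fits. Of the ZBP1 and necroptosis list, 2 genes were higher in pDC than in cDC2 with column totals, and 1 to 2 without a column. The cause was not tested. No paired analysis was possible because no column can be matched to a numbered sample. Raw counts a column were low for Ddx58 (30 to 105 in pDC, 38 to 94 in cDC1), Nlrp3 (26 to 71 in pDC) and Nlrc4 (55 to 94 in pDC), which limits the precision there.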

Other observations

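Aim2 had the widest spread of the sensors within cDC2, and its 6 values fell at 26.9, 28.6 and 31.4 CPM and at 47.1, 50.8 and 52.4 CPM, with a gap between. In the same columns, in that order, Nlrc4 had 14.9, 17.7, 18.1, 22.9, 24.0 and 26.5 CPM. Ifih1 had 18.2, 18.2, 18.2, 20.9, 24.4 and 23.7 CPM, and Zbp1 had 30.0, 24.6, 24.7, 33.4, 34.4 and 31.1 CPM. Nlrc4, Ifih1 and Zbp1 were thus higher in every column where Aim2 was higher, whereas Ddx58, Dhx58, Mavs and Nlrp3 were not. Csf1r had 336, 339, 340, 105, 107 and 131 CPM, lower where Aim2 was higher. Adgre1, another macrophage gene, had 158.1, 181.8, 166.4, 246.6, 216.6 and 246.0 CPM, higher where Aim2 was higher. Nlrp3 had 38.3, 38.3, 39.6, 37.2, 31.9 and 45.1 CPM. The summed monocyte and macrophage markers had 712, 778, 740, 458, 425 and 461 CPM. Gaps were not limited to cDC2. In pDC, Aim2 values fell at 18.4, 19.0 and 19.1 CPM and at 21.9, 22.6 and 25.8 CPM. Dhx58 in those pDC columns, in that order, had 15.3, 17.7, 15.2, 10.4, 10.9 and 11.7 CPM. The columns carry no genotype or other label, and the relation between these values was not tested.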
